A study of Mus musculus with 6 samples.

Results

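The 10 genes described here carry the signal of insulin from the hepatocyte surface to the nucleus: *Insr*, *Irs1*, *Irs2*, *Pik3r1*, *Akt1*, *Akt2*, *Gsk3a*, *Gsk3b*, *Foxo1* and *Foxo3*. The rule that picks them lists gene names of the textbook pathway and uses no measured value, and all 10 are listed among the 56691 genes that were counted. Liver RNA of pregnant mice in 2 groups of 3 libraries was sequenced. KPF dams (labelled hChrebp-KO, replicates 1 to 3) are described as lacking the transcription factor ChREBP in hepatocytes, and WPF dams (labelled WT, replicates 2 to 4) served as controls. All dams ate HFrD, a high-fructose diet, from mating until late pregnancy, when the livers were taken. In the methods of the study both groups carry homozygous floxed *Chrebp* alleles and KPF dams in addition carry 1 copy of Alb-Cre, so the label WT stands for floxed mice without Cre. The albumin promoter drives Cre in hepatocytes, and the other cells of the liver keep the gene. The age of the dams is not given in the sources used here, and neither is the feeding state in which the livers were collected.

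Insulin binds its receptor, a tyrosine kinase encoded by *Insr*, which phosphorylates the docking proteins IRS1 and IRS2. These recruit PI3-kinase through its regulatory subunit p85α, the product of *Pik3r1*, and the lipid made by PI3-kinase brings AKT1 and AKT2 to the membrane, where they are activated. AKT in turn phosphorylates GSK3, which releases glycogen synthase from inhibition, and the FOXO factors, which then leave the nucleus and stop driving genes of gluconeogenesis. Most of this relay works through phosphorylation of proteins, which an mRNA level does not measure. The comparison of KPF with WPF asks whether the mRNAs of the relay itself differ when hepatocytes lack ChREBP during fructose feeding in pregnancy.

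The libraries held between 10694496 and 14496630 counted reads, and every KPF library held fewer than every WPF library. *Mlxipl*, the gene of ChREBP, was read at 179, 700 and 849 CPM in the KPF libraries (replicates 1, 2 and 3), against 961, 1260 and 879 CPM in the WPF libraries (replicates 2, 3 and 4). CPM are counts for each 1000000 reads of a library after TMM scaling, which puts libraries of unequal depth on a common footing. KPF replicate 3 was close below WPF replicate 4, the groups did not overlap, and the log2 fold change was -0.84 (SE 0.53, adjusted p = 0.584, edgeR's quasi-likelihood test). It was -0.42 without KPF replicate 1, the lowest library, and -1.23 without KPF replicate 3. The reads were counted over the whole gene, so they do not show whether the floxed exon was lost. KPF replicate 2 stood apart: 4 skeletal muscle markers (*Acta1*, *Ckm*, *Myh4*, *Mb*) summed to 1552 CPM there and to between 0.673 and 5.27 CPM in the other 5 libraries. KPF replicate 1 stood apart in other markers: 3 smooth muscle markers (*Acta2*, *Myh11*, *Tagln*) summed to 109 CPM there and to between 7.85 and 27.4 CPM elsewhere, and its stellate cell and red cell sums were the highest. Hepatocyte markers were abundant in all 6 libraries (sums of 79440 to 104800 CPM in KPF and 102500 to 171100 in WPF), and 8 stellate cell markers summed to between 299 and 607 CPM in KPF and 261 and 284 in WPF. Reads of mitochondrial genes took 33.2 to 35.0% of the counts in KPF and 18.7 to 29.1% in WPF. The part of these differences in the results was not tested. In bulk liver RNA, fewer cells of a type and less RNA per cell cannot be told apart.

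For none of the 10 genes did the difference between KPF and WPF pass the test. Of the 9 that passed the expression minimum (a mean of at least 1 in FPKM, the count scaled for gene length and library total), 0 had an adjusted p under 0.05 by edgeR's quasi-likelihood test, and the same was true of 0% of all 10866 tested genes. At an unadjusted p under 0.05 there were 0 of 9 members, against 10.8% of all tested genes, and 0 when a fold of at least 1.5 was also required, against 9.82%. The 2 groups overlapped in all 9, whereas they did not overlap in 15.7% of all tested genes. The log2 fold changes (KPF minus WPF) ran from -0.48 for *Irs2* to 0.32 for *Akt1* and *Foxo3*, 5 above 0 and 4 below, with a median of 0.06 against 0.02 for all tested genes. The tenth gene, *Irs1*, was below the minimum.

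**Figure D1:**
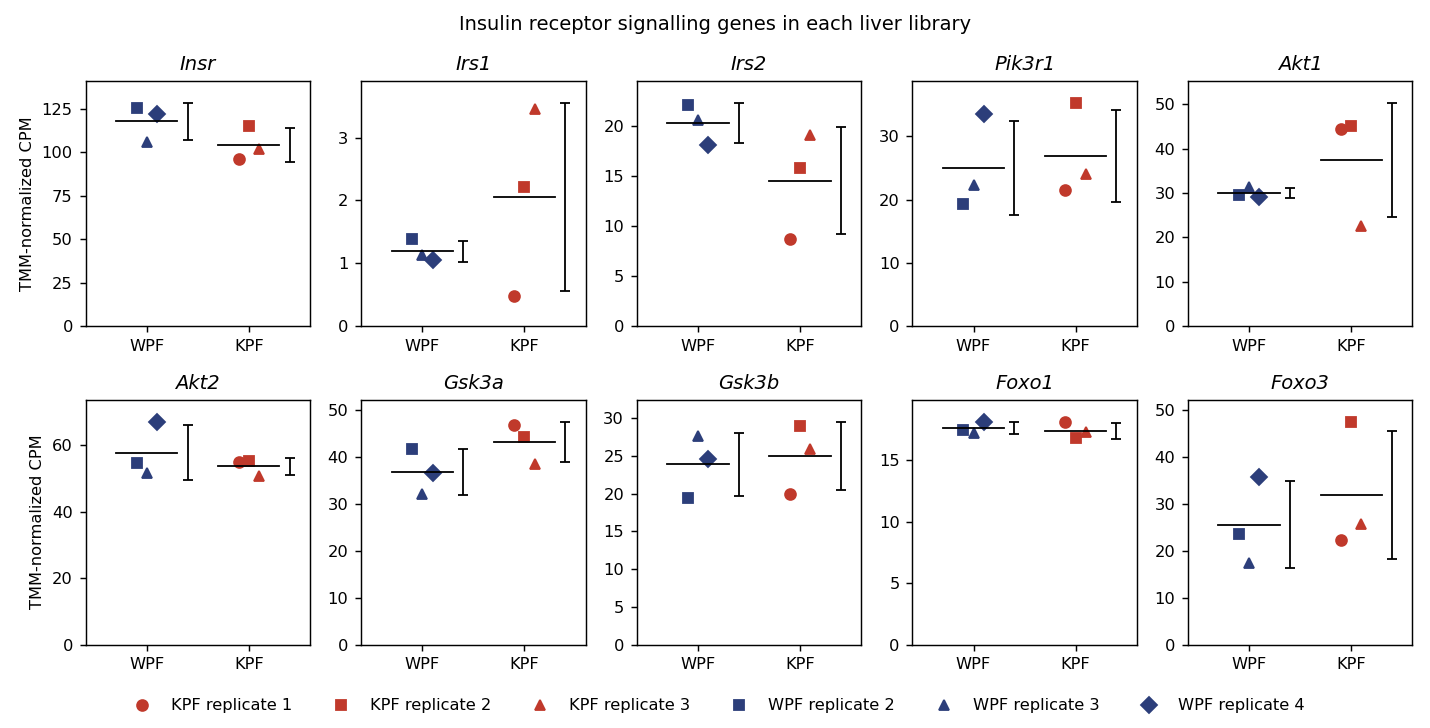
Level of each of the 10 genes in TMM-normalized CPM (y axis, from 0) in WPF and KPF livers. Points are single libraries, horizontal lines are group means and bars are SD (n = 3). The ranges of the groups overlap in every panel, the 6 libraries lie closest together for *Foxo1*, and *Irs1* lies below 4 CPM throughout.

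The promoters of the docking proteins are shown because *Irs1* and *Irs2* are the members whose promoter windows held both an E-box and the TGTTTTG element. The E-box, CACGTG, is a type of site bound by basic helix-loop-helix factors, the family of ChREBP. TGTTTTG is the type of site through which FOXO acts on insulin-responsive genes. The windows are the 250 bases before the transcription start in RefSeq (build GRCm38.p6, read on the minus strand), *Irs1* at chr1:82291440-82291689 and *Irs2* at chr8:11008930-11009179, with both motifs in capitals.
Irs1: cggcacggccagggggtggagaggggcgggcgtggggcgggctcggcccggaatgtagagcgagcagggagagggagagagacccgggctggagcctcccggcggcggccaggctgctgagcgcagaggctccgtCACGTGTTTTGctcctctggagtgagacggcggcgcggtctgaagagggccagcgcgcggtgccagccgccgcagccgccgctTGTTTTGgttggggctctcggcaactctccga
Irs2: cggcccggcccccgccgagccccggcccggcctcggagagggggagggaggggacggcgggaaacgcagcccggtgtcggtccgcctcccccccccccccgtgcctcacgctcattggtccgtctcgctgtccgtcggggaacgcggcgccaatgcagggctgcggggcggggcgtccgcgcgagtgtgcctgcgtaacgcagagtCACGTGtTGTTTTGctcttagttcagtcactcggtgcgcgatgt
In the *Irs1* window the E-box lies 115 to 110 bases before the start and shares its last bases with a FOXO-type element at 111 to 105, and another such element lies at 32 to 26. In the *Irs2* window the E-box lies 44 to 39 bases before the start and the FOXO-type element follows at 37 to 31, with a single base between them. Among 32851 RefSeq windows of the same length, 6.02% held this E-box and 5.56% this FOXO-type element on either strand, and 97 (0.295%) held both. Of the 10 genes 9 had a window. The other motifs searched were GTAAACA (3.17% of windows, among members *Akt1*), TGTTT (46.4%, 6 members), CCACGTGA (1.23%, no member), CAGCTG (13.0%, *Akt2*), TGACGTCA (1.55%, no member) and GGGGCGGGG (10.4%, *Irs2*, *Pik3r1*, *Gsk3a* and *Foxo3*). The shorter FOXO core TGTTT overlaps with the longer FOXO elements, and the E-box overlaps with CCACGTGA. The 8 motifs were chosen with the sequences in view, and a match describes letters, not binding.

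The mRNA of the insulin receptor varied 1.31-fold from its lowest to its highest library. *Insr* (ENSMUSG00000005534, chr8:3172061-3329617, minus strand, GRCm39) was read at 95.7, 115 and 102 CPM in KPF, against 125, 106 and 122 CPM in WPF, in the same order of replicates. KPF replicate 1 was the lowest library and WPF replicate 2 the highest, and KPF replicate 2 lay above WPF replicate 3. Its log2 fold change was -0.18 (SE 0.22, 95% interval -0.68 to 0.32, adjusted p = 0.779 from edgeR, exact two-sided permutation p = 0.2). With 3 libraries a group, 0.1 is the smallest p that this permutation test can give.

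The 2 docking proteins differed in level and in how far the libraries scattered. *Irs2*, the docking protein whose mRNA FOXO raises in fasted liver (ENSMUSG00000038894, chr8:11034681-11058458, minus strand, GRCm39), was read at 8.67, 15.8 and 19.1 CPM in KPF, against 22.1, 20.6 and 18.2 CPM in WPF. The 3 WPF libraries lay close together, KPF replicate 1 was far below them, and KPF replicate 3 lay above WPF replicate 4. KPF minus WPF, the log2 fold change was -0.48 (SE 0.30, 95% interval -1.18 to 0.22, adjusted p = 0.582, exact permutation p = 0.2), the lowest of the 9 tested members. Leaving out each library in turn moved it between -0.73 and -0.21, below 0 each time. It was -0.73 without KPF replicate 3 (unadjusted p = 0.0516 from edgeR) and -0.21 without KPF replicate 1, so KPF replicate 1 set much of its size. On the FPKM scale libraries are divided by their total counts. There *Irs2* stood at 1.35, 2.49 and 2.72 in KPF and at 3.12, 3.53 and 3.38 in WPF, without overlap. Scaling by library totals also moved tested genes in general towards lower values in KPF, to a median of -0.12 in log2 against 0.02 under TMM. How many other genes separate on the FPKM scale was not tested, so whether the separation is particular to *Irs2* is not known.

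*Irs1* (ENSMUSG00000055980, chr1:82210822-82269137, minus strand, GRCm39), the docking protein more prominent in muscle and fat, was rare in all 6 livers. It was counted with 5, 25 and 36 reads in KPF replicates 1 to 3 and with 16, 16 and 18 reads in WPF replicates 2 to 4, or 0.476, 2.21 and 3.46 CPM against 1.38, 1.12 and 1.05. The 3 WPF libraries were nearly alike, and the KPF libraries lay on both sides of them. Fitted without the expression minimum, its log2 fold change was 0.72 (SE 0.63, 95% interval -0.58 to 2.03, adjusted p = 0.744 from edgeR, exact permutation p = 0.7).

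*Pik3r1*, the regulatory subunit of PI3-kinase (ENSMUSG00000041417, chr13:101817071-101904725, minus strand, GRCm39), was read at 21.4, 35.2 and 24.1 CPM in KPF, against 19.3, 22.3 and 33.4 CPM in WPF. One library of each group, KPF replicate 2 and WPF replicate 4, was well above the other 4. The log2 fold change was 0.11 (SE 0.29, 95% interval -0.56 to 0.78, adjusted p = 0.907, exact permutation p = 0.6). It was -0.14 without KPF replicate 2, the library with the muscle transcripts, and 0.37 without WPF replicate 4.

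The mRNAs of the AKT kinases differed in how far the libraries scattered. *Akt1* (ENSMUSG00000001729, chr12:112620255-112641318, minus strand, GRCm39), the isoform linked mostly to growth, was read at 44.5, 45.0 and 22.5 CPM in KPF, against 29.5, 31.3 and 29.0 CPM in WPF. KPF replicates 1 and 2 lay above every WPF library and KPF replicate 3 below every one. Its log2 fold change was 0.32 (SE 0.28, 95% interval -0.34 to 0.98, adjusted p = 0.697, exact permutation p = 0.4). Without KPF replicate 3 it was 0.58 (unadjusted p = 0.0202, adjusted p = 0.256 from edgeR), whereas without KPF replicate 1 or 2 it was 0.17 or 0.16. *Akt2* (ENSMUSG00000004056, chr7:27290977-27340251, plus strand, GRCm39), the isoform chiefly responsible for insulin's metabolic action in liver, was read at 55.0, 55.2 and 50.6 CPM in KPF, against 54.7, 51.6 and 67.1 CPM in WPF. WPF replicate 4 was the high library and the other 5 lay close together. KPF minus WPF, the log2 fold change was -0.11 (SE 0.20, 95% interval -0.58 to 0.36, adjusted p = 0.856, exact permutation p = 0.6), and it was 0.0031 without WPF replicate 4 and -0.18 without WPF replicate 3.

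Glycogen synthase kinase 3 has 2 genes. *Gsk3a* (ENSMUSG00000057177, chr7:24927683-24937276, minus strand, GRCm39) was read at 47.0, 44.3 and 38.6 CPM in KPF, against 41.8, 32.1 and 36.7 CPM in WPF. KPF replicates 1 and 2 were above every WPF library, and KPF replicate 3 was below WPF replicate 2. The log2 fold change was 0.23 (SE 0.20, 95% interval -0.23 to 0.69, adjusted p = 0.688, exact permutation p = 0.2), and it stayed above 0 without any 1 library (0.14 to 0.33). *Gsk3a* overlaps 9130221H12Rik on the other strand (274 reads over all libraries against 2963), and whether the counting used strand is not given in the sources used here. *Gsk3b* (ENSMUSG00000022812, chr16:37909363-38066446, plus strand, GRCm39) was read at 20.0, 28.9 and 25.9 CPM in KPF, against 19.4, 27.6 and 24.6 CPM in WPF. Each group had 1 lower library and a pair of higher ones, and the log2 fold change was 0.06 (SE 0.23, 95% interval -0.46 to 0.59, adjusted p = 0.929, exact permutation p = 0.7). It turned to -0.06 without KPF replicate 2 and also without WPF replicate 2.

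The FOXO factors, at the end of the relay, included the most even and one of the most scattered of the 10 mRNAs. *Foxo1* (ENSMUSG00000044167, chr3:52175757-52260642, plus strand, GRCm39), the main FOXO of hepatic gluconeogenesis, was read at 18.1, 16.8 and 17.3 CPM in KPF, against 17.5, 17.2 and 18.2 CPM in WPF. The highest library was 1.08-fold the lowest, and the coefficient of variation was 3.75% in KPF and 2.78% in WPF. Its log2 fold change was -0.02 (SE 0.17, 95% interval -0.42 to 0.39, adjusted p = 0.975, exact permutation p = 0.7). *Foxo3* (ENSMUSG00000048756, chr10:42057837-42152751, minus strand, GRCm39), a related factor of stress resistance and autophagy, was read at 22.4, 47.5 and 25.7 CPM in KPF, against 23.6, 17.4 and 35.7 CPM in WPF. KPF replicate 2 was the highest library and WPF replicate 4 came next, as for *Pik3r1*. The coefficient of variation was 42.8% in KPF and 36.5% in WPF, and the log2 fold change was 0.32 (SE 0.37, 95% interval -0.54 to 1.18, adjusted p = 0.768, exact permutation p = 0.6). Without KPF replicate 2, the library with the muscle transcripts, it was -0.09, and without WPF replicate 4 it was 0.63.

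**Figure D2:**
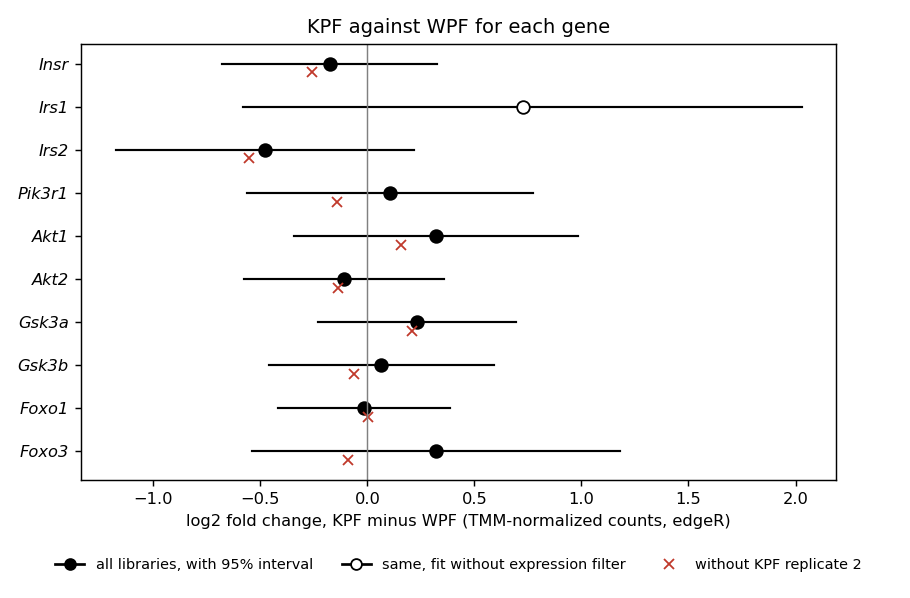
Log2 fold change of each gene, KPF minus WPF (x axis), with its 95% interval from edgeR (3 KPF and 3 WPF libraries). The open circle is *Irs1*, fitted without the expression minimum, and crosses give the value without KPF replicate 2. Every interval contains 0, and the crosses of *Pik3r1*, *Gsk3b* and *Foxo3* lie below 0 where their circles lie above it.

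Per deposited exonic length, the relay was uneven in these livers. *Gsk3a* was the most abundant of the 10 at a mean of 13.8 FPKM (SD 1.73, n = 6 libraries), and it was above *Akt1* in all 6. *Akt1*, *Insr* and *Akt2* followed at mean levels of 8.26, 8.12 and 7.91 FPKM. Their order was not the same in every library: *Akt1* was above *Insr* in 2 of 6 and *Insr* above *Akt2* in 4 of 6. *Foxo3* (3.84 FPKM) was below *Akt2* in all 6 and above *Irs2* in 4. *Irs2*, *Pik3r1*, *Gsk3b* and *Foxo1* lay between 2.77 and 2.03 FPKM, and neighbours in that order changed places in 2 or 3 of the libraries. *Irs1* came last at 0.172 FPKM and was below *Foxo1* in all 6.

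**Figure D3:**
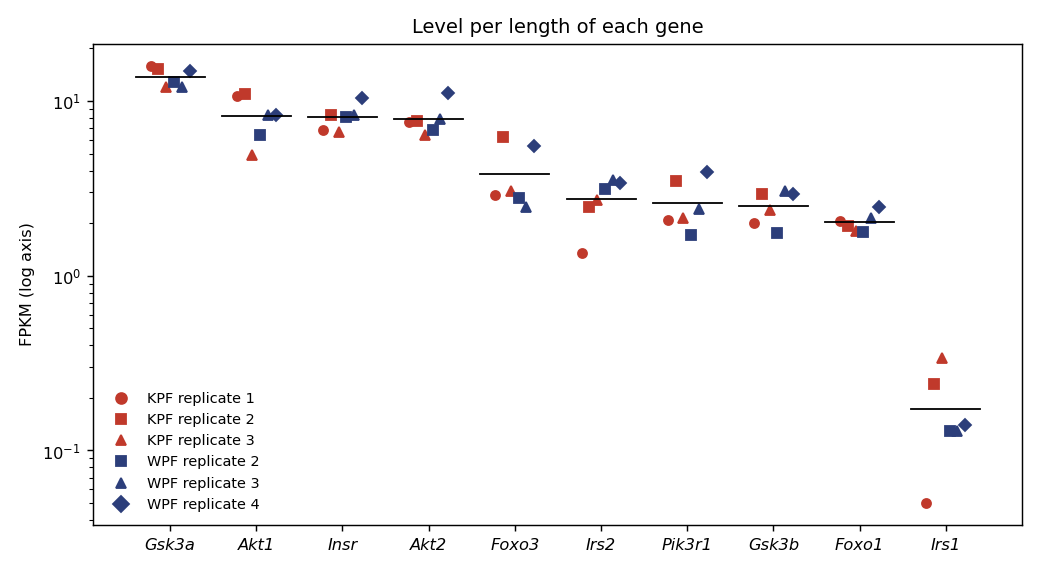
FPKM of each gene (y axis, log scale) in the 6 libraries, ordered by the mean (horizontal line). *Gsk3a* is highest and *Irs1* lowest in every library, and the libraries of *Akt1*, *Insr* and *Akt2* overlap.

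A ratio of related genes within a library does not depend on how libraries are scaled. Reads per kilobase of *Irs2* were 26.3, 10.4 and 7.99 times those of *Irs1* in KPF and 23.1, 26.5 and 24.9 times in WPF. *Irs2* was thus the larger docking transcript in all 6 livers, KPF replicates 2 and 3 had lower ratios than every WPF library, and KPF replicate 1 lay within the WPF range. The log2 ratio was lower in KPF by 0.94 on average (difference -0.94), which did not pass an exact two-sided permutation test (p = 0.3, Benjamini-Hochberg p = 0.6 over 4 ratios). It was -1.45 without KPF replicate 1, -0.77 without KPF replicate 2 and -0.59 without KPF replicate 3. The ratio in KPF replicate 1 rests on 5 reads of *Irs1*. The ratio of *Akt2* to *Akt1* was 0.71, 0.705 and 1.29 in KPF and 1.07, 0.949 and 1.33 in WPF (difference in log2 ratio -0.35, exact permutation p = 0.3). KPF replicates 1 and 2 held more *Akt1* than *Akt2* per length, as did WPF replicate 3. The length is the deposited exonic length (4098 bases for *Akt1*, 7131 for *Akt2*), not that of the transcripts in these livers. In CPM, without division by length, *Akt2* was above *Akt1* in every library. Without KPF replicate 3 the difference in log2 ratio was -0.64, and without KPF replicate 1, KPF replicate 2 or WPF replicate 4 it lay between -0.22 and -0.20. *Gsk3a* was at 7.96, 5.19 and 5.05 times the level of *Gsk3b* in KPF and at 7.33, 3.94 and 5.05 times in WPF (difference in log2 ratio 0.17, exact permutation p = 0.6). *Foxo3* was at 1.42, 3.24 and 1.70 times the level of *Foxo1* in KPF and at 1.55, 1.15 and 2.25 times in WPF (difference in log2 ratio 0.32, exact permutation p = 0.6). The ratio of each pair thus overlapped between the groups, and the adjusted p was 0.6 for all 4.

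**Figure D4:**
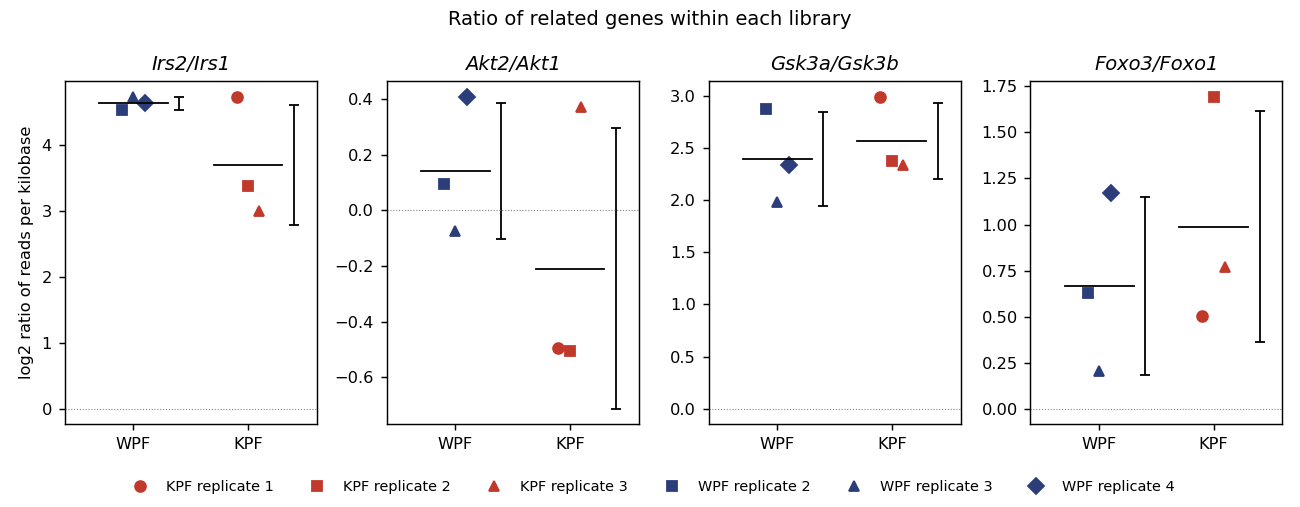
Log2 ratio of reads per kilobase of 4 pairs of related genes (y axis) in each library of WPF and KPF. Lines are group means and bars are SD (n = 3), and 0 marks equal levels. For *Irs2* over *Irs1* the WPF libraries lie close together, KPF replicate 1 lies among them and KPF replicates 2 and 3 lie below.

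The genes whose log2 CPM followed *Insr* most closely over the 6 libraries were *Wdtc1* (Pearson r = 0.991), 1810010H24Rik (r = 0.990) and *Miga2* (r = 0.985), and for *Irs2* they were *Bicral* (r = 0.996), *Samd8* (r = 0.993) and *Tomm7* (r = 0.993). An r over 0.95 with *Insr* was found for 16 tested genes and with *Irs2* for 77. These values describe 6 libraries of 2 groups that share their scaling.

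No gene of the wider relay or of its brakes had an adjusted p under 0.05. Of 24 further relay genes, from PI3-kinase subunits to mTOR, 18 were tested. At an unadjusted p under 0.05, 0 were higher in KPF (6.29% of all tested genes) and 1 was lower (4.55% of all tested genes), with a median log2 fold change of -0.13 against 0.02 for all tested genes. *Sos1*, the exchange factor that opens the RAS branch, was read at 18.5, 16.4 and 18.1 CPM in KPF, against 34.9, 27.5 and 21.3 CPM in WPF. All KPF libraries were below all WPF libraries (log2 fold change -0.66, SE 0.23, adjusted p = 0.43). *Tsc1* (-0.43, adjusted p = 0.484), a brake on mTOR, and *Rheb* (-0.52, adjusted p = 0.491), the activator it restrains, came next by p. Of 18 genes that dampen insulin signalling, 14 were tested, with 0 higher and 1 lower at an unadjusted p under 0.05 (the same 6.29% and 4.55% of all tested genes) and a median of -0.13. *Ptprf*, the receptor phosphatase LAR, was read at 26.7, 24.4 and 39.7 CPM in KPF, against 40.4, 59.2 and 58.6 CPM in WPF. KPF replicate 3 lay just below WPF replicate 2, and the log2 fold change was -0.80 (SE 0.27, adjusted p = 0.43). *Phlpp1*, an AKT phosphatase, was at -0.66 (adjusted p = 0.55) and *Grb14*, an adaptor that inhibits the receptor kinase, at -0.30 (adjusted p = 0.643). Without KPF replicate 2, *Sos1* had an unadjusted p of 0.0543 and *Ptprf* of 0.0523 by edgeR, and 0 genes of either list were below 0.05. When each library was left out in turn, the relay had 0 to 3 lower genes and the brakes 0 to 2, and both had the most without KPF replicate 3 (*Sos1*, *Tsc1*, *Rheb*, *Ptprf* and *Phlpp1*). The relay also had 0 without WPF replicate 2 or 3 and 2 without WPF replicate 4, and the brakes had 0 without KPF replicate 1 or WPF replicate 3. *Phlpp1* was at -0.39 without KPF replicate 2 and at -1.15 without KPF replicate 3.

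Some genes at the output of the pathway were measured with wider error than the 9 tested members. Standard errors on the log2 scale reached 1.34 (*G6pc*), against 0.37 for the members, but others were no wider (*Cdkn1b* 0.29, *Bcl6* 0.33). None of the output genes had an adjusted p under 0.05. Of 12 gene names listed as lowered by insulin, most of them through FOXO, 10 were tested. *G6pc* and G6pc1 name the same gene, and *Sesn3* was below the expression minimum. At an unadjusted p under 0.05, 2 were higher in KPF (against 6.29% of all tested genes) and 1 was lower (against 4.55%), and the median log2 fold change was 0.10. *Igfbp1*, a secreted IGF-binding protein, was read at 13.5, 8.40 and 17.1 CPM in KPF, against 80.7, 122 and 12.6 CPM in WPF. WPF replicate 4 lay among the KPF libraries, and the log2 fold change was -2.46 (SE 0.73, adjusted p = 0.43). When each library was left out it ranged from -1.84 (without WPF replicate 3) to -2.97 (without WPF replicate 4, adjusted p = 0.0813). *Pck1*, the enzyme that commits carbon to gluconeogenesis, lay on the other side at 266, 1721 and 322 CPM in KPF against 198, 129 and 314 CPM in WPF (log2 fold change 1.85, SE 0.75, adjusted p = 0.453). KPF replicate 2 set its size, and without that library it was 0.46 (unadjusted p = 0.278 by edgeR). *Bcl6*, a transcriptional repressor, was read at 6.19, 12.6 and 7.11 CPM in KPF, against 5.18, 4.36 and 5.04 CPM in WPF, without overlap (log2 fold change 0.83, SE 0.33, adjusted p = 0.451), and it was 0.45 without KPF replicate 2. *G6pc*, glucose-6-phosphatase, is named here after its values were seen, as the partner of *Pck1* in gluconeogenesis. It was read at 5.33, 13.1 and 55.2 CPM in KPF, against 112, 328 and 4.51 CPM in WPF (log2 fold change -2.59, SE 1.34, adjusted p = 0.515). As for *Igfbp1*, 2 WPF livers were high and WPF replicate 4 was low. Its log2 fold change was -1.24 without WPF replicate 3 and -4.00 without KPF replicate 3. At an unadjusted p under 0.05, 0 of the 10 tested genes were higher without KPF replicate 2, WPF replicate 2 or WPF replicate 3, and 1 without WPF replicate 4. With *Igfbp1* counted each time, 1 to 3 were lower when a library was left out, 2 of them without KPF replicate 3 and 3 without WPF replicate 4. Over all tested genes, counts in either direction were 1076, 654, 574 and 1199 without KPF replicate 2 and WPF replicates 2, 3 and 4. Without KPF replicate 3 that count was 1718, against 1177 with all libraries.

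All 5 genes listed as raised by insulin were tested. The list holds *Insig2*, although the main *Insig2* transcript of liver is known to fall with insulin, so the values are also given without it. At an unadjusted p under 0.05, 0 were higher in KPF (against 6.29% of all tested genes) and 1 was lower (against 4.55%). The median log2 fold change was -1.03 against 0.02 for all tested genes, and -0.84 over the 4 genes other than *Insig2*. *Pnpla3*, a lipid droplet protein that SREBP-1c and ChREBP both induce, was read at 1.24, 1.42 and 9.32 CPM in KPF, against 87.1, 91.2 and 20.4 CPM in WPF. The groups did not overlap, with WPF replicate 4 nearest to KPF (log2 fold change -4.05, SE 0.92, adjusted p = 0.415, exact permutation p = 0.1). When each library was left out it ranged from -5.63 to -3.63. *Srebf1*, the gene of SREBP-1, which drives lipogenesis, was read at 21.4, 116 and 82.5 CPM in KPF, against 174, 144 and 132 CPM in WPF, without overlap (log2 fold change -1.03, SE 0.54, adjusted p = 0.517). *Insig2*, which retains SREBP in the endoplasmic reticulum, was read at 55.6, 21.5 and 43.6 CPM in KPF, against 128, 121 and 21.1 CPM in WPF, and WPF replicate 4 was as low as the lowest KPF library (log2 fold change -1.16, SE 0.65, adjusted p = 0.547, and -1.64 without WPF replicate 4). Without KPF replicate 2 the unadjusted p of *Srebf1* was 0.0231 at a log2 fold change of -1.54, and without KPF replicate 1 it was 0.0781 at -0.60 (both by edgeR). Without KPF replicate 2, 2 of the 5 genes were lower at an unadjusted p under 0.05. There were also 2 without KPF replicate 1 and without WPF replicate 4 (there *Insig2* was one of them), and 1 without each of the other 3 libraries, *Pnpla3* among them each time. Over all tested genes, counts in either direction were 1076 without KPF replicate 2, 803 without KPF replicate 1 and 1199 without WPF replicate 4. Several genes of this list are known targets of ChREBP as well as of insulin, and the liver RNA data hold no measure of insulin. The study measured serum insulin in dams of both groups and reports less insulin resistance in KPF than in WPF. From Western blots of liver, it also reports better sensitivity of the insulin pathway in HFrD-fed dams without hepatocyte ChREBP.

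Of 6 related receptors and partners 4 were tested, with 0 in either direction at an unadjusted p under 0.05 (against 10.8% of all tested genes) and a median log2 fold change of -0.31. *Igf2r*, which clears IGF2, was the one without overlap, against 15.7% of all tested genes without overlap. It was read at 32.8, 21.2 and 30.4 CPM in KPF, against 34.0, 36.5 and 47.2 CPM in WPF (log2 fold change -0.48, adjusted p = 0.51, and -0.32 without KPF replicate 2). *Ide*, the protease that degrades insulin, was at -0.31 (adjusted p = 0.627). *Insrr*, the insulin receptor-related receptor, was read at 22.0, 3.71 and 10.4 CPM in KPF, against 0.518, 0.562 and 17.2 CPM in WPF, and here too WPF replicate 4 lay with KPF (log2 fold change 0.96, SE 1.24, adjusted p = 0.793). It was 4.44 without WPF replicate 4 (adjusted p = 0.189), 0.19 without KPF replicate 1 and 0.43 without WPF replicate 2 or 3. *Ceacam1*, a receptor substrate that promotes insulin clearance and is named after its values were seen, was at -0.31 with all libraries, at -0.88 without KPF replicate 3 (adjusted p = 0.267) and at 0.0089 without KPF replicate 1. *Irs4* had 0 reads in all 6 libraries, whereas *Igf1r* was counted below the expression minimum.

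**Figure D5:**
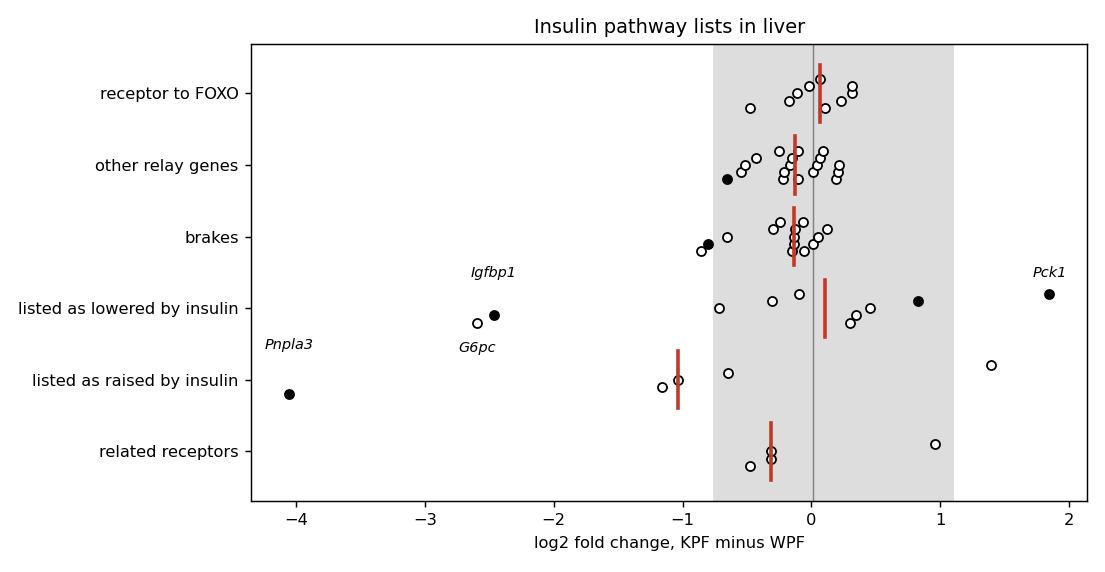
Log2 fold change (KPF minus WPF, x axis) of the tested genes of each list, 1 circle per gene. Filled circles have an unadjusted p under 0.05, red bars are list medians, the grey band spans the 5th to 95th percentile of all 10866 tested genes (-0.75 to 1.10) and the grey line is their median. The receptor-to-FOXO genes all lie inside the band. The genes farthest outside it are *Pnpla3*, *G6pc*, *Igfbp1* and *Pck1*, all from the lists of genes that insulin raises or lowers. *Pck1* was at 0.46 without KPF replicate 2, within the limits of the band, and *G6pc* had an SE of 1.34. Whether insulin accounts for the place of these genes was not tested.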

How the data were processed

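Poly(A) RNA of 6 livers was sequenced. The authors deposited 1 table with raw read counts and the FPKM of each gene. Per the labels the build is GRCm39, and the submitters' processing notes name cutadapt 1.9.1, HISAT2 2.2.1, HTSeq 0.6.1 and DESeq2 without their roles. Gene symbols came from GENCODE M21 (52073 of 56691 IDs matched). The members, gene lists and tests were chosen with earlier results of these data known. Counts were tested with edgeR 4.0.16 (R 4.3.3, TMM, quasi-likelihood F test, no covariates) over 10866 genes (mean FPKM 1 or more), with Benjamini-Hochberg adjustment over all of them. The CPM printed are TMM-normalized. *Irs1* and other genes under the FPKM minimum take their values from the fit without a filter. Ratios of related genes were log2 ratios of reads per kilobase, and exact permutation tests were run on log2 values. From each further list the genes named are those at an unadjusted p under 0.05, or the 3 of smallest p where there are fewer. Replicate numbers 2 and 3 occur in both groups. Deviations of libraries with the same number correlated at values near 0 (0.0446 and -0.0166). Pairs of unlike number were lower (-0.0951 and -0.187). The labels give 1 liver per library, and p-values measure the spread between these libraries. Alternatives were DESeq2 1.42.0, its size factors, library totals, other filters, limma 3.58.1 on log2(FPKM + 1) and log2(FPKM + 0.1), leaving out each library, a replicate block and 0.5 reads added to the ratios, with totals without mitochondrial reads, and the list of genes that insulin raises without *Insig2*, chosen after seeing the data.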

Additional observations from a re-analysis of the deposited data

How the results depend on the processing

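No alternative brought a member to an adjusted p under 0.05. Over all genes, the count at that threshold was 0 by edgeR (1177 at an unadjusted p under 0.05), 156 by DESeq2, 286 with no filter, 1 with limma on log2(FPKM + 0.1), and 0 to 5 when each library was left out, the 5 without WPF replicate 4. Genes at an unadjusted p under 0.05 and 1.5-fold (634 higher and 433 lower in KPF) numbered 371 higher and 729 lower with library totals, 1576 and 910 with no filter, and 255 and 205 at a minimum FPKM of 5. They numbered 238 higher with limma on log2(FPKM + 1), 257 higher and 681 lower with limma on log2(FPKM + 0.1), and 324 to 910 higher and 246 to 709 lower when a library was left out. Of the calls, 59.4% were higher under TMM, 33.7% when library totals were used, 30.1% and 27.4% in limma at the pseudocounts 1 and 0.1, and 69.7% for totals without mitochondrial reads. The median log2 fold change of all genes was 0.02, -0.12, -0.09, -0.12 and 0.08 in the same order.

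Between 0 and 1 members had an unadjusted p under 0.05 when a library was left out (*Akt1* without KPF replicate 3). The replicate block, which shares only numbers 2 and 3 between the groups, gave 1 member (*Foxo3*, log2 fold change 0.79, adjusted p = 0.319). With the block 1241 of all tested genes had an unadjusted p under 0.05. Values close to 0 changed sign. *Pik3r1* was at -0.0545 with library totals and at -0.0170 and -0.0123 with limma at the pseudocounts 1 and 0.1, and *Gsk3b* at -0.0864, -0.0490 and -0.0592. *Foxo1* was at 0.0470 with totals without mitochondrial reads. When each library was left out, *Pik3r1* ranged from -0.14 (without KPF replicate 2) to 0.37, *Akt2* from -0.18 to 0.0031 (without WPF replicate 4), *Gsk3b* from -0.0644 (without WPF replicate 2) to 0.20, *Foxo1* from -0.0466 to 0.00053 (without KPF replicate 2) and *Foxo3* from -0.0924 (without KPF replicate 2) to 0.63. The log2 ratio of *Gsk3a* to *Gsk3b* ranged from -0.0401 (without KPF replicate 1) to 0.41 and was -0.0697 with the replicate block, and that of *Foxo3* to *Foxo1* from -0.0330 (without KPF replicate 2) to 0.57. With the block *Akt1* was at 0.07, and the log2 ratio of *Akt2* to *Akt1* at -0.08 and of *Irs2* to *Irs1* at -1.44. Directions of *Insr*, *Irs2*, *Akt1* and *Gsk3a* were the same in all alternatives run. The causes were not tested. *Irs1* has a value only without a filter, and *Irs2*, *Pik3r1*, *Gsk3b*, *Foxo1* and *Foxo3* none at a minimum FPKM of 5.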
